A study of Mus musculus with 2 samples.

Results

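The guanylate-binding proteins (GBPs) of mouse Th17 cells were examined as a gene family. The members were 10 genes chosen by symbol, namely Gbp2, Gbp3, Gbp5 and Gbp7 of a chromosome 3 cluster and Gbp4, Gbp6, Gbp8, Gbp9, Gbp10 and Gbp11 of a chromosome 5 cluster. Of these 10 genes, 9 were matched among the 17002 genes of the deposited table, and Gbp11, which RefSeq annotates as a transcribed pseudogene, was not analysed here for its level. The 2 libraries, 1 per genotype, came from C57BL/6 mice that were wild type or lncRNA-GM-/-, that is, without a long non-coding RNA of that name. In both, naive CD4+ T cells were held for 3 days in Th17-polarising culture, with spleen CD4+ T cells given as the source. The age and sex of the mice, the number of mice behind each library and how the lncRNA-GM allele was made are not given in the sources used here. LncRNA-GM RNA was not analysed here, and its loss in the knockout cells was therefore not checked.

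GBPs are large GTPases of the dynamin superfamily. Interferon gamma is their best known inducer: it acts through its receptor and the kinases Jak1 and Jak2, and the transcription factor Irf1 takes part in the induction of GBP genes. In infected cells GBPs gather on vacuoles and bacteria, break them open and feed inflammasomes, the complexes that activate inflammatory caspases. Gbp2 and Gbp5 end in a CaaX box, a signal for a lipid anchor.

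All 9 matched GBP genes were lower in the knockout library than in the wild-type library. Of the 8 that reached 1 FPKM (fragments scaled to transcript length and library size), 7 were lower by at least 1.5-fold and 0 were higher by that much. Over all 10998 genes that reached 1 FPKM in at least 1 library, 5.19% were at least 1.5-fold lower and 2.71% at least 1.5-fold higher. Gbp2 and Gbp6 were at least 2-fold lower, a call that 1.96% of all genes received, with 1.01% at least 2-fold higher. With 1 library per genotype there is no replicate spread and no test, so each difference describes these 2 libraries without a replicate check. In bulk RNA, fewer cells of a type and less RNA per cell cannot be told apart.

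The promoters of the chromosome 3 members are shown because only these 4 members had an entry in the promoter table used here. All 4 were at least 1.5-fold lower, as were Gbp4, Gbp6 and Gbp9, which had no entry. Interferon acts on short motifs before gene starts. Each sequence is RefSeq's (GRCm38.p6), plus strand, and covers the 250 bases before a transcript start in RefSeq's promoter table. The Gbp3 window ends inside the annotated gene body, which begins at 142560016, because the start in that table lies further downstream. Capitals mark matches to the core of the interferon-stimulated response element (ISRE), which reads GAAA, any 2 bases, GAAA, and to the gamma-activated site (GAS), TTCNNNGAA. Both strands were searched, so an ISRE core on the other strand reads TTTC, any 2 bases, TTTC.
Gbp2, chr3:142620413-142620662: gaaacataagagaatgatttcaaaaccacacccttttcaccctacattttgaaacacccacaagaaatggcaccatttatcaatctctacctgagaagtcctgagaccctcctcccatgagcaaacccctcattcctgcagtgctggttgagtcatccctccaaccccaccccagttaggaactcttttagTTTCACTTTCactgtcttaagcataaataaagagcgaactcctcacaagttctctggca
Gbp3, chr3:142559794-142560043: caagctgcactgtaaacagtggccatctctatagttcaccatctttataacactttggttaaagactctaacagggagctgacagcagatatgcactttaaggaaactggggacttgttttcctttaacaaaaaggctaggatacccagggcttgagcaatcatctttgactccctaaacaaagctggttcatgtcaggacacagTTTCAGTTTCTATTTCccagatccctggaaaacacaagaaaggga
Gbp5, chr3:142496684-142496933: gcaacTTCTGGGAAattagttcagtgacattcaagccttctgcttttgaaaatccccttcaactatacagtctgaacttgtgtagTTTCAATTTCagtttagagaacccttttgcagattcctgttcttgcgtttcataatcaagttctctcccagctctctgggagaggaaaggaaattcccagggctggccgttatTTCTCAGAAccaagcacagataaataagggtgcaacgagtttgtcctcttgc
Gbp7, chr3:142530086-142530335: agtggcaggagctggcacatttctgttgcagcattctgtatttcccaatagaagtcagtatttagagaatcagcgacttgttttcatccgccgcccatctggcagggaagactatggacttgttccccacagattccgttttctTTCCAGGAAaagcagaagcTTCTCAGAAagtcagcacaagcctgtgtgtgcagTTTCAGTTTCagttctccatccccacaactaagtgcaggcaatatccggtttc

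An ISRE core was present in the promoter of each of these 4 genes, and 2.98% of all 32851 promoter windows of the same length held one. The match began 59 bases before the start in Gbp2, 53 in Gbp7 and 165 in Gbp5. Gbp3 held 2 overlapping matches, from 45 and 39 bases before the upstream of its 2 starts in the promoter table, and the window before the downstream one held none. A GAS was present in Gbp5 and Gbp7, with 2 matches each, and 7.02% of all windows held one. No GAS letters were found in the windows of Gbp2 and Gbp3. A match describes letters only, and the binding of a factor was not measured. Gbp4, Gbp6, Gbp8, Gbp9, Gbp10 and Gbp11 had no entry in the promoter table.

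Gbp2, a prenylated GBP that coats the vacuoles of intracellular parasites, was the most abundant member, at 179 FPKM in wild-type cells and 64.4 FPKM in knockout cells. Its level was 2.76-fold lower, with a log2 ratio (knockout over wild type, of FPKM + 1) of −1.47. Levels per length can be compared between genes, and 3.31% of all genes tested had a higher level than Gbp2 in the wild type, against 11.3% in the knockout. Only 73 of the 10998 genes (0.664%) had a ratio as low as that of Gbp2 or lower. Gbp2 spans positions 142620663 to 142638008 of chromosome 3.

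Gbp5, the other prenylated member here and one tied to the NLRP3 inflammasome, was at 30.2 FPKM in wild-type cells and 15.0 FPKM in knockout cells. Its log2 ratio was −0.96, a 1.95-fold lower level. Gbp3 was at 13.2 and 6.52 FPKM, with a log2 ratio of −0.92. Gbp7, which has been linked to assembly of the phagocyte oxidase, was the least abundant of the cluster, at 7.72 and 3.96 FPKM and a log2 ratio of −0.81. These 3 genes, at 1.76-fold to 1.95-fold lower, lay close together and apart from Gbp2. With a pseudocount of 5, which called 2.07% of all genes lower, Gbp7 was within 1.5-fold. Their gene bodies lie on chromosome 3 from 142496934 to 142522344 (Gbp5), from 142560016 to 142573213 (Gbp3) and from 142530336 to 142550151 (Gbp7).

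Counting error was small beside most of these differences. Reads behind each value were reconstructed from the p-values in the authors' deposited table, or, for Gbp2, from its transcript length. They gave about 8779 reads of Gbp2 in the wild type and 3097 in the knockout, and a 95% exact (Clopper-Pearson) interval of the log2 read ratio from −1.54 to −1.42. For Gbp5 the interval ran from −1.12 to −0.89, for Gbp3 from −1.22 to −0.83 and for Gbp7 from −1.13 to −0.79. The interval of Gbp2 did not overlap those of the other 3 genes, which overlapped each other. The reads carry no molecular identifiers, so these intervals span counting error alone and leave out the spread between cultures.

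Gbp4 was the most abundant gene of the chromosome 5 cluster, at 45.8 FPKM in wild-type cells and 30.1 FPKM in knockout cells. Its log2 ratio was −0.59, a 1.504-fold lower level that sat at the 1.5-fold limit. Gbp6 went from 29.2 to 9.43 FPKM, a 2.89-fold lower level (log2 ratio −1.53) and the lowest ratio of the family. Only 62 genes (0.564%) had a ratio at or below that of Gbp6. Gbp8 went from 22.7 to 16.7 FPKM and was 1.34-fold lower, the one member above 1 FPKM that lay within 1.5-fold. Gbp9 went from 13.6 to 8.61 FPKM and was 1.52-fold lower, also close to the limit. Gbp10 was listed at 0.48 and 0.30 FPKM, under the minimum of 1 FPKM in both libraries. Gbp4, Gbp8 and Gbp9 thus had ratios close to each other, and that of Gbp6 was lower.

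The interval of the log2 read ratio ran from −0.69 to −0.52 for Gbp4, from −1.75 to −1.51 for Gbp6, from −0.56 to −0.33 for Gbp8 and from −0.80 to −0.52 for Gbp9. Those of Gbp4, Gbp8 and Gbp9 overlapped, and that of Gbp6 overlapped none of them. The reads behind some of these intervals are uncertain. In the wild type, Gbp6 had 2423 reads solved from the p-value, beside 1477 from its level and transcript length. The 2 numbers were 1377 and 1087 for Gbp8 and 3138 and 4038 for Gbp4, so the widths of these intervals are approximate. Gbp10 rested on about 35 and 21 reads, with an interval from −1.57 to 0.11, so a difference was not detectable at this depth. On GRCm38.p6 the cluster runs along chromosome 5 in the order Gbp8 (105012513 to 105053609), Gbp9 (105076464 to 105110357), Gbp4 (105115767 to 105139586), Gbp10 (105215699 to 105239533) and Gbp6 (105270702 to 105295871). The 1.5-fold calls of Gbp4 and Gbp9 ended when ratios were centred on the median of all genes tested or when the pseudocount was 5, and the calls in the cluster then went from 3 to 1. Centring called 4.74% of all genes lower.

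**Figure D1:**
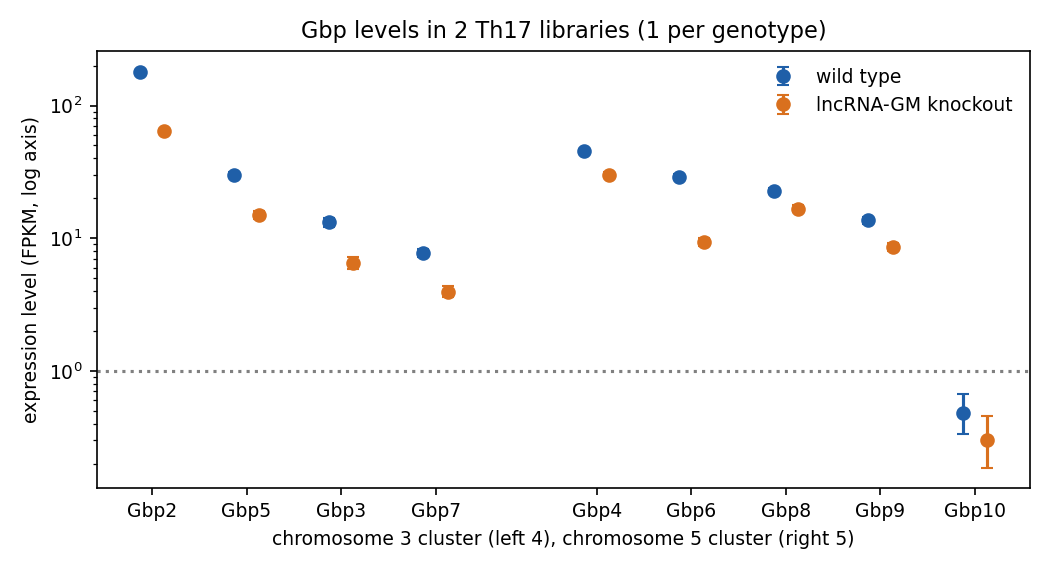
Level of each matched GBP gene in FPKM (log axis) in the wild-type (blue) and the lncRNA-GM knockout (orange) library, 1 library each, with 95% exact Poisson counting intervals from reconstructed reads and a dotted line at 1 FPKM. The knockout point lies below the wild-type point for each of the 9 genes, with Gbp2 highest (179 and 64.4 FPKM) and Gbp10 under 1 FPKM in both.

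**Figure D2:**
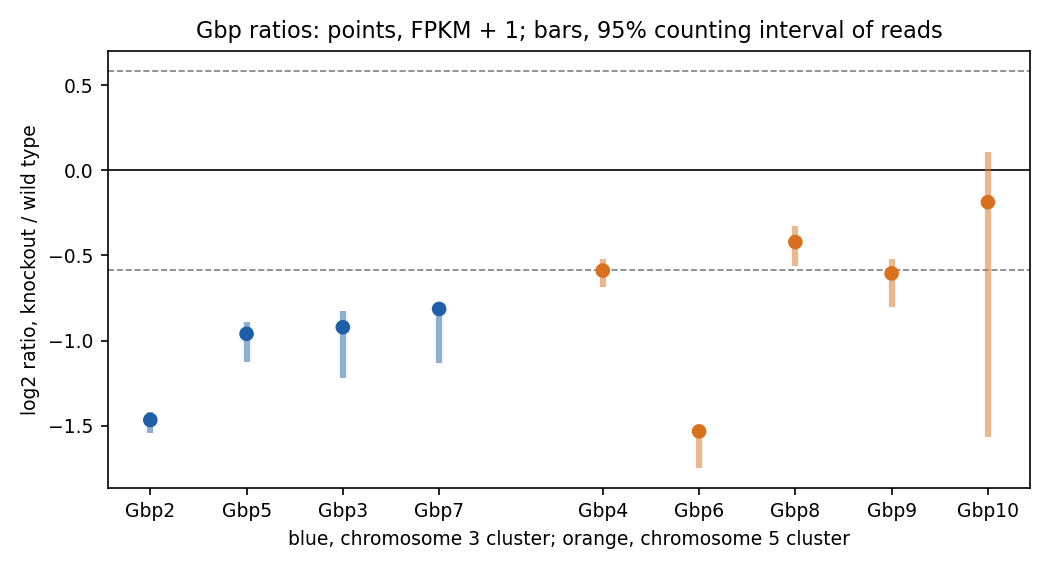
Log2 ratio (knockout over wild type) of FPKM + 1 (points), with the 95% counting interval of the read ratio without a pseudocount (bars), for chromosome 3 (blue) and chromosome 5 (orange) genes, and dashed lines at 1.5-fold. Gbp2 and Gbp6 have the lowest ratios (−1.47 and −1.53), and only the bar of Gbp10 reaches 0.

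The order of the levels was similar in both libraries. In the wild type it ran Gbp2, Gbp4, Gbp5, Gbp6, Gbp8, Gbp9, Gbp3, Gbp7 and Gbp10. The 95% exact Poisson counting intervals of Gbp5 (28.8 to 31.6 FPKM) and Gbp6 (28.0 to 30.4 FPKM) overlapped, as did those of Gbp9 and Gbp3, so these neighbours were not told apart by counting. In the knockout, Gbp8 had rank 3, at 16.7 FPKM (15.7 to 17.8), but its interval overlapped that of Gbp5 at rank 4 (14.0 to 16.0 FPKM). Gbp6 was at rank 4 in the wild type and rank 5 in the knockout, at 9.43 FPKM. The interval of Gbp6 then overlapped that of Gbp9 (7.97 to 9.29 FPKM) and no longer that of Gbp5.

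The summed level of the chromosome 3 genes was 230.59 FPKM in wild-type cells and 89.9 FPKM in knockout cells, 2.55-fold lower. The chromosome 5 sum was 111.8 and 65.2 FPKM, 1.70-fold lower. Each sum leaned on 1 gene. Without Gbp2 the chromosome 3 sum was 1.97-fold lower, and without Gbp6 the chromosome 5 sum was 1.47-fold lower. The single ratios ran from −1.47 to −0.81 on chromosome 3, with 4 of 4 genes at least 1.5-fold lower, and from −1.53 to −0.42 on chromosome 5, with 3 of 4. The ranges of the clusters overlapped, and a difference between them cannot be tested with 1 library per genotype. The 4 chromosome 3 genes carried the label "NOD-like receptor signaling pathway" in the authors' deposited table, and the chromosome 5 genes carried no pathway label there.

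All 9 matched genes together came to 342 FPKM in wild-type cells and 155 FPKM in knockout cells, 2.20-fold lower. Gbp2 made up 52.4% of that sum in the wild type and 41.5% in the knockout. It also made up 61.4% of the difference between the libraries. Gbp4 rose as a share of the family, from 13.4% to 19.4%, although its level was lower. The family summed without Gbp2 was 1.79-fold lower, at 162.9 and 90.7 FPKM. The 8 tested genes had a median log2 ratio of −0.87, beside a median of −0.03 over all genes tested. They were at 3.96 FPKM or more in both libraries, so none was tested only through its level in the wild type.

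**Figure D3:**
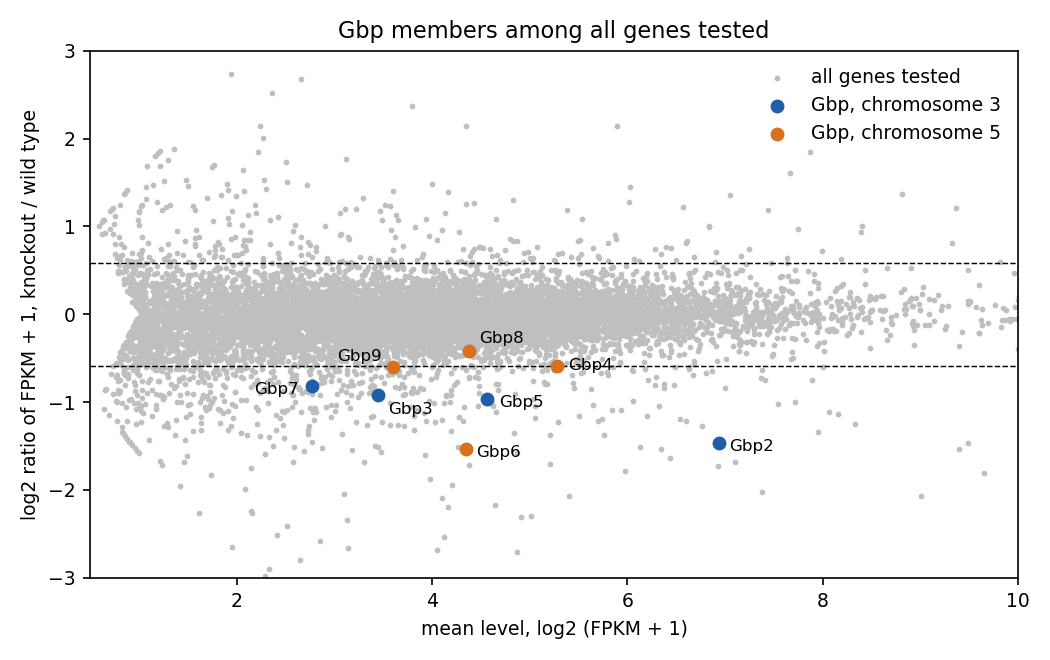
Log2 ratio (knockout over wild type) of FPKM + 1, against the mean level of each of the 10998 genes tested (grey), with the chromosome 3 (blue) and chromosome 5 (orange) GBP genes named and dashed lines at 1.5-fold. The 8 GBP genes lie below 0, and Gbp2 is the one at the highest mean level (log2 ratio −1.47). The 98 genes outside the plotted range are not shown.

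GBP genes are close paralogs, and reads can be shared between copies, so the coding sequences of GENCODE M21, which holds a coding model of Gbp11 as well, were compared for all 10 members. Within the chromosome 5 cluster, identity of coding bases ran from 90.01% (Gbp9 and Gbp11) to 98.4% (Gbp6 and Gbp10) over 15 pairs. Within the chromosome 3 cluster it ran from 64.8% to 78.6% over 6 pairs, with Gbp3 and Gbp7 nearest to each other. Between the clusters it ran from 64.0% to 75.9% over 24 pairs. By this measure the chromosome 3 genes are less alike than the chromosome 5 genes. Read length is not given in the sources used here, and windows of 100 coding bases were searched for exact matches in transcripts of other GBP genes and of predicted (Gm) genes. Gbp2 and Gbp5 had no such match. The share of such windows was 1.36% for Gbp3, 1.32% for Gbp7, 7.13% for Gbp4, 6.10% for Gbp8 and 4.89% for Gbp9. With windows of 50 bases the shares were larger, at 24.9% for Gbp4, 29.0% for Gbp8 and 18.4% for Gbp9. Gbp3 then shared 6.96%, Gbp7 6.81% and Gbp2 2.97% (with Gbp2b, not a member here), and Gbp5 still had no match. How many reads were shared thus depends on the unknown read length.

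Gbp6 and Gbp10 had the largest shares, with 92.0% and 46.8% of the 100-base windows and 94.4% and 69.5% of the 50-base windows. These shares count matches in any transcript searched and not only within the pair. The first 150 coding bases of the longest coding transcripts of Gbp6 and Gbp10 show how near the pair is, with capitals at the 3 bases that differ.
Gbp6: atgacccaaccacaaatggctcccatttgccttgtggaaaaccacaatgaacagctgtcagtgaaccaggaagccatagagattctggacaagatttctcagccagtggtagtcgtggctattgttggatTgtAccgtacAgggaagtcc
Gbp10: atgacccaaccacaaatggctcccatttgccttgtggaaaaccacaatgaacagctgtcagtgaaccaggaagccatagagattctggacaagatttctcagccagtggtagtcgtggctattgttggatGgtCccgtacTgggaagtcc
Counted from the first base of the start codon, the differences from Gbp6 to Gbp10 are T131G, A134C and A141T, all in the part that encodes the nucleotide-binding P-loop. The longest alignment of their transcripts had 99.2% identity over 3131 bases. Summed, the pair was at 29.7 FPKM in wild-type cells and 9.73 FPKM in knockout cells, 2.86-fold lower, beside 2.89-fold for Gbp6 alone. The split of reads between Gbp6 and Gbp10 is uncertain, and with it the low level listed for Gbp10. Exons of both also overlap a predicted gene, Gm43302, on the same strand, which was not analysed here. The overlap covers 1726 exon bases of Gbp6 and 1792 of Gbp10. Windows of both genes matched Gm43302, so part of each share can be the same bases annotated as another gene.

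The genes around the clusters were read for comparison, as the 5 nearest protein-coding genes of the table on each side of each cluster. Some of these genes lay far off. The chromosome 3 cluster spans 141 kb, and Hs2st1 lay 1933 kb after the start of that cluster. Tspan5 and Rap1gds1 lay farther still, before it. Of these 20 genes, 17 reached 1 FPKM, 1 was at least 1.5-fold lower and none was at least 1.5-fold higher, close to the 5.19% of all genes. The lower gene was Kyat3, a kynurenine aminotransferase gene next to Gbp2, at 1.76 FPKM in wild-type cells and 0.81 FPKM in knockout cells. Kyat3 was thus tested only through its level in the wild type. Its log2 ratio of −0.61 was within 1.5-fold after centring on the median of all genes. Flanking medians were −0.05 on chromosome 3 and −0.12 on chromosome 5, beside GBP medians of −0.94 and −0.60. On chromosome 5 the flanking genes Lrrc8d (log2 ratio −0.56) and Gm42166 (−0.52) had lower ratios than Gbp8 (−0.42). Both were close to Gbp4 (−0.59). The other flanking genes there that reached 1 FPKM ran from −0.30 (Abcg3) to 0.08 (Thoc2l).

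**Figure D4:**
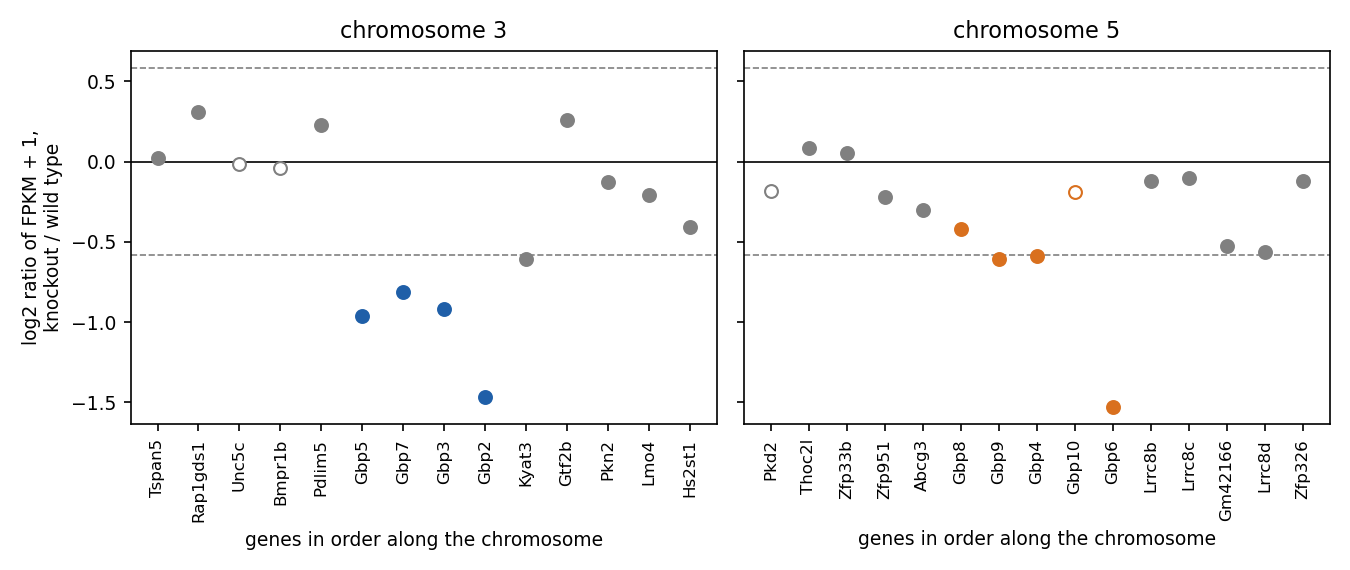
Log2 ratio (knockout over wild type) of FPKM + 1, of GBP genes (blue on chromosome 3, orange on chromosome 5) and of the 5 nearest genes on each side (grey), in chromosomal order, with open circles for genes under 1 FPKM in both libraries and dashed lines at 1.5-fold. The GBP genes that reached 1 FPKM lie from −0.42 to −1.53, and Kyat3 (−0.61) is the only flanking gene past the line.

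The genes that lie upstream of GBPs in interferon gamma signalling differed among themselves. Ifng, the gene of interferon gamma, was at 26.8 FPKM in wild-type cells and 5.51 FPKM in knockout cells, 4.27-fold lower. The receptor genes Ifngr1 and Ifngr2 were slightly higher in the knockout, at 213 and 253 FPKM and at 42.0 and 52.8 FPKM. The kinase genes Jak1 (71.0 and 67.8 FPKM) and Jak2 (54.0 and 52.4 FPKM) were nearly level. Ligand RNA was thus lower, receptor RNAs slightly higher and kinase RNAs nearly level, and signalling itself was not measured.

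The transcription factor gene Irf1 was at 60.9 and 47.7 FPKM, with a log2 ratio of −0.35. Socs1, a Jak inhibitor that interferon gamma and other cytokines induce, ran the other way, at 158 and 238 FPKM and a log2 ratio of 0.58, just inside 1.5-fold. Of the 12 genes of the pathway list that reached 1 FPKM, 2 were at least 1.5-fold lower, Ifng among them, and 0 were higher by as much. The list median was −0.05.

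Immunity-related GTPases are a second family of interferon-induced GTPases that act on vacuoles together with GBPs. The list read here also held Gvin1 (log2 ratio −0.58), a very large inducible GTPase of another family. Of 11 listed genes that reached 1 FPKM, 1 was at least 1.5-fold lower, Iigp1, at 3.21 FPKM in wild-type cells and 0.67 FPKM in knockout cells. Iigp1 was thus tested only through its level in the wild type. The log2 ratios of all 11 were below 0, with a median of −0.33. In a list of type I interferon response genes, 9 reached 1 FPKM, of which 4 passed 1.5-fold and all 4 were lower. These were Usp18 (6.67 and 2.55 FPKM), a brake on interferon signalling, the ubiquitin-like modifier gene Isg15 (8.05 and 4.48 FPKM), the transcription factor gene Irf7 (6.44 and 3.59 FPKM) and Oas1a (1.28 and 0.42 FPKM). Oas1a was tested only through its level in the wild type. The median of the type I list was −0.50, and the 4 calls fell to 1 with a pseudocount of 5, which weighs on genes at such low levels.

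Genes for proteins that load or partner GBPs were read from a further pair of lists. Of 15 genes for the ATG conjugation system, which places GTPases on vacuoles, and for CaaX processing, none was at least 1.5-fold lower. Map1lc3a, an LC3 gene, was higher, at 3.06 FPKM in wild-type cells and 6.82 FPKM in knockout cells, and the list median was −0.09. Of 7 inflammasome genes none was at least 1.5-fold lower on FPKM + 1, against 3 by the log2 ratio of the authors' deposited table, which called 7.98% of all genes lower. Il1b, the gene of interleukin-1 beta, was higher, at 1.5 and 6.19 FPKM, and the list median was −0.44.

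**Figure D5:**
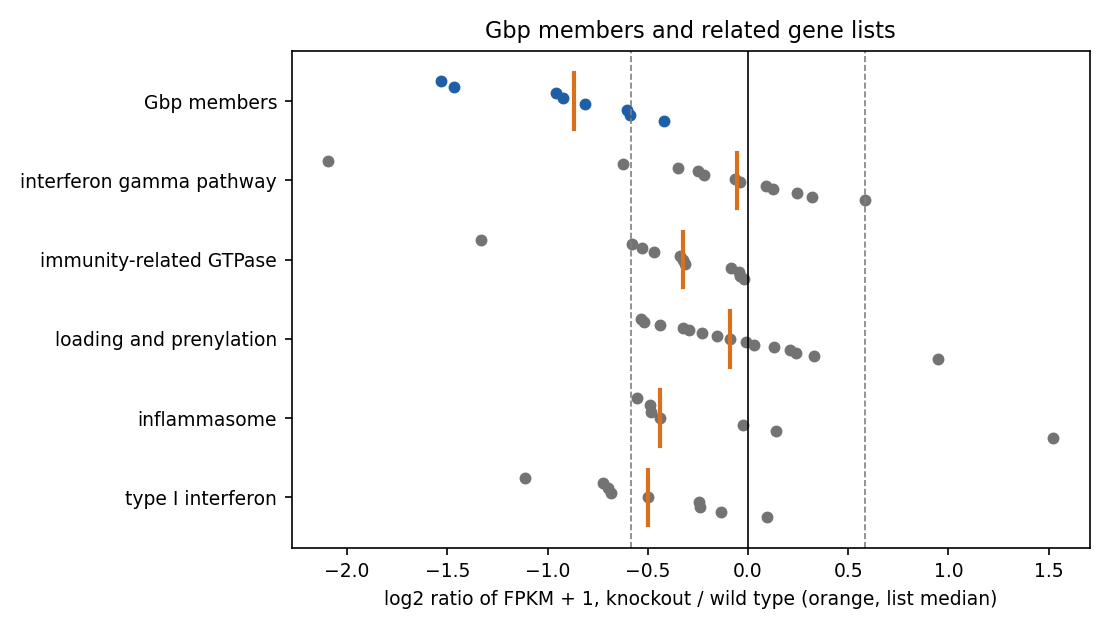
Log2 ratio (knockout over wild type) of FPKM + 1, of each gene that reached 1 FPKM among the GBP members (blue) and 5 related lists (grey), with orange bars at list medians and dashed lines at 1.5-fold. The GBP median of −0.87 lies below the medians of the lists, which run from −0.50 to −0.05, while Ifng has the lowest single ratio.

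The cell make-up of the cultures was read from marker genes. CD4 T cell markers were present and within 1.5-fold (6 of 6, summed level 2616 FPKM in wild-type cells and 2946 FPKM in knockout cells). Of these, only Cd4 (174 and 213 FPKM) sets CD4 apart from CD8 T cells. Th17 markers were present, and 4 of 5 were at least 1.5-fold lower (summed level 1563 and 626 FPKM). Other marker lists also differed between the libraries, some lower in the knockout and some higher. Of 8 CD8 T cell and NK cell markers, 6 reached 1 FPKM and all 6 were at least 1.5-fold lower (summed level 1702 and 583 FPKM), while the NK and effector markers Ncr1 and Eomes were under 1 FPKM in both libraries. Gzma (1254 and 358 FPKM) made up most of that sum. Cd8a was at 98.1 and 55.7 FPKM and Cd8b1 at 212 and 126 FPKM. All 4 Th1 markers, Ifng among them, were at least 1.5-fold lower (summed level 323 and 153 FPKM, most of it Il12rb2 at 279 and 140 FPKM). Of 8 macrophage and dendritic cell markers, 5 reached 1 FPKM and 4 were at least 1.5-fold higher (summed level 35.7 and 77.1 FPKM), with Csf1r, Itgax and Adgre1 under 1 FPKM in both libraries. Of 4 B cell markers, 3 reached 1 FPKM and 1 was at least 1.5-fold higher (summed level 4.31 and 7.37 FPKM), with Ms4a1 under 1 FPKM in both. No marker was listed at 0 in both libraries. The part of these cell types in the GBP levels was not tested.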

How the data were processed

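RNA of 2 Th17 cultures (1 wild type, 1 lncRNA-GM knockout) was sequenced on Illumina HiSeq instruments (labels' protocols). The submitters' processing notes name Bowtie2, RSEM and the build GRCm38.p6, with no versions, and neither strandedness nor filters are stated. The deposited table has 17002 genes. Its header says only expression; FPKM is the unit inferred for these deposited values, since the columns sum to 517664 and 514343 and not to a fixed total. The authors' deposited log2 ratio was recomputed within 0.001, with 0 replaced by 0.01. The authors' deposited p-value comes from an unnamed test, and their deposited FDR, treated as a score since 443 values exceed 1, was not used.

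Ratios are log2 of FPKM + 1 (a pseudocount of 1), knockout to wild type, for genes reaching 1 FPKM in either library, called at 1.5-fold, and at 2-fold beside it. The form of the p-value was read from genes listed at 0 in 1 library, and was taken as a Poisson comparison. The wild-type share of reads, 50.4%, was chosen so that genes at 0 in the knockout gave whole reads. With it, 20 of 20 genes at 0 in 1 library and with at least 1 FPKM gave whole reads within 0.05. These genes overlap those behind the choice, so this is no independent check of the form. Solving the p-value for reads gave the reads of each gene and a depth of about 19.4 M fragments in the wild type and 19.1 M in the knockout (median over 200 genes with 1 annotated transcript). Intervals are Clopper-Pearson for ratios and exact Poisson for levels. The steps were tested on simulated Poisson reads, whose p-values were made with the same formula. Such data cannot check that formula or the sharing of reads between paralogs.

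Gene positions are RefSeq's for GRCm38.p6 and transcripts those of GENCODE M21, compared with Biopython 1.88 and BLAST 2.17.0. Promoters matched 4 of 10 members. Protein sequences were not used here. Tools were scipy 1.17.1, pandas 2.3.3, numpy 2.4.6 and matplotlib 3.10.9 under Python 3.11.15. The members and lists were chosen with earlier results of these data known. Named by rule were all members, each list or flanking gene past 1.5-fold, and 8 interferon gamma pathway genes, of which 1 is not reported here.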

Additional observations from a re-analysis of the deposited data

How the results depend on the processing

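The 8 GBP genes above 1 FPKM kept a log2 ratio below 0 in all 56 values of 7 alternative settings (other pseudocounts, filters, scalings and the authors' deposited ratio). These settings reuse the same 2 values of each gene. A pseudocount or filter cannot change the sign, and centring and rescaling shift ratios only slightly. The sign was thus fixed beforehand and is no check of the result. The number at least 1.5-fold lower, 7, was 4 with a pseudocount of 5, 5 after centring on the median and 2 at a fold of 2; summing near-identical genes first and, added after seeing the data, the ratio of reads left it at 7. On chromosome 5 the 3 calls became 1 with a pseudocount of 5, after centring and at a fold of 2, and on chromosome 3 the 4 calls became 1 at a fold of 2. The interferon gamma list went from 2 lower genes to 1 at a fold of 2, and the type I list from 4 to 1 at a fold of 2 and with a pseudocount of 5. The immunity-related GTPase list went from 1 to 2 with a pseudocount of 0.1 or the deposited ratio, and to 0 with a pseudocount of 5 or a filter of 5 FPKM. The inflammasome list went from 0 to 1 with a pseudocount of 0.1 and to 3 with the deposited ratio. The flanking genes went from 1 to 2 with a pseudocount of 0.1, after rescaling both libraries to the same total or with the deposited ratio, and to 0 with a pseudocount of 5, a filter of 5 FPKM, centring or a fold of 2. Beside 5.19% in the main setting, 7.66% of all genes were called lower with a pseudocount of 0.1. The share was 6.31% after rescaling, 7.98% with the deposited ratio and 4.11% with a filter of 5 FPKM, so these list counts moved with the share over all genes. Summed levels had a log2 ratio of −1.14 for all members and −0.84 without Gbp2, −1.35 on chromosome 3 and −0.98 without Gbp2, and −0.77 on chromosome 5 and −0.56 without Gbp6; the sums that leave out a gene were added after seeing the data. The deposited ratio has no value for sums. Depth limits Gbp10 alone among the members. No paired analysis was possible because each genotype has 1 library, and no library could be left out.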
